A study of Mus musculus with 4 samples.

Results

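The collagen genes described here are the 42 genes whose platform symbol has the form Col, a number, the letter a and a number, out of 18194 genes measured in sorted cells of chimeric kidneys from mouse embryos at day 15.5. They were represented on the array by 82 probe sets. In each of the 27 genes with several probe sets, the one with the highest mean log2 intensity over all arrays was used, and the other 15 genes had 1 probe set. Of 44 collagen genes sorted into classes by chain type, Col28a1 and Col6a6 were not measured here.

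One population was GFP-positive kidney cells labelled Tfrc-null (2 arrays), descended from embryonic stem cells described as lacking the transferrin receptor gene Tfrc (TFR1) and injected, 3 to 5 per embryo, into wildtype blastocysts. They were set against GFP-negative wildtype host cells (2 arrays). Both populations were dissociated with collagenase and trypsin/EDTA and separated by fluorescence-activated sorting, and both were profiled on Affymetrix mouse genome arrays of 45101 probe sets. The 2 groups differ in the sort gate, in descent from stem cells or host, and in the Tfrc label at once, and no GFP-positive cells with intact Tfrc were analysed here. The strain of the stem cells, the number of clones and any pooling of kidneys are not given in the sources used here.

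Collagens are triple helices of 3 chains, secreted as procollagen and assembled into different matrices. Fibrillar collagens form the fibres of connective tissue, type IV forms the sheet of basement membranes, type VI forms beaded microfilaments, and FACITs (fibril-associated collagens with interrupted triple helices) sit on fibril surfaces. Transmembrane collagens span the cell surface. In the embryonic kidney, interstitial stroma makes most fibrillar collagen, while the ureteric bud, nephron epithelia and vessels rest on type IV networks. Prolyl and lysyl hydroxylases, which modify collagen chains, need ferrous iron, and transferrin receptor is the main route of iron into many cells.

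The Tfrc signal went against the label. The main Tfrc probe set read 2509 and 3175 intensity units in cells labelled Tfrc-null, against 1759 and 2348 in wildtype cells, a log2 difference of 0.47. Of the other 5 Tfrc probe sets, 4 also had a higher mean in the cells labelled Tfrc-null (0.47 to 1.42). Among these 4, only that with the largest difference separated the groups, at 60.8 and 63.1 against 14.5 and 36.9 in wildtype cells. The rest of the 4 overlapped, and the remaining probe set (-0.22) was below the control level defined below on every array. Which part of Tfrc was deleted is not stated in the labels. Hybridization controls followed the replicate number rather than the group, with BioB spikes of 4727 and 3415 in the arrays labelled Tfrc-null and 4702 and 2984 in the wildtype arrays, so differences within replicate numbers are given as well. Array medians lay between 17.5 and 19.3. The highest of 27 bacterial control probe sets, for sequences that mice lack, served as each array's control level and read 7.40 and 7.77 in the arrays labelled Tfrc-null and 7.18 and 9.08 in the wildtype arrays.

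Genes for fibril-forming and type VI collagens had mostly higher means in the cells labelled Tfrc-null, and type IV and membrane zone collagens mostly lower ones, but no collagen gene passed the test. Of the 42 genes, 26 had a higher mean and 16 a lower one, where 57.4% of all genes had a higher mean. By limma with Benjamini-Hochberg adjustment, 0 of 42 collagen genes had an adjusted p under 0.05, as did 0 of 18194 genes (0%). At an unadjusted p under 0.05 there were 12 collagen genes, 10 higher and 2 lower, against a background of 8.02% of all genes. Both arrays labelled Tfrc-null lay above both wildtype arrays for 17 collagen genes (background 20.6%) and below both for 8 (background 14.3%). The 17 include Col19a1 and the 8 include Col17a1, which were not above the control level on both arrays of either group. Without these 2 genes the counts were 16 and 7. The median log2 difference was 0.16 over the collagen genes and 0.04 over all genes, and within replicate numbers it was 0.22 and 0.22 against 0.04 and 0.05. With 2 arrays a group the smallest two-sided exact permutation p is 0.333, so no single-gene permutation test could pass. In sorted bulk RNA, fewer cells of a type and less RNA per cell cannot be told apart.

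Of the 42 genes, 38 were above the control level on both arrays of at least 1 group. Col19a1 and Col10a1 were above it on some arrays, and Col17a1 and Col6a5 on none. Differences of at least 2-fold without overlap were seen for 3 collagen genes in the upward direction (Col5a3, Col25a1 and Col6a4), where the background was 1.15%. Col6a4 is counted by its measured values, although both its wildtype arrays were at or below the control level and its bound against that level is 1.99-fold. There were 0 in the downward direction, where it was 1.51%.

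**Figure D1:**
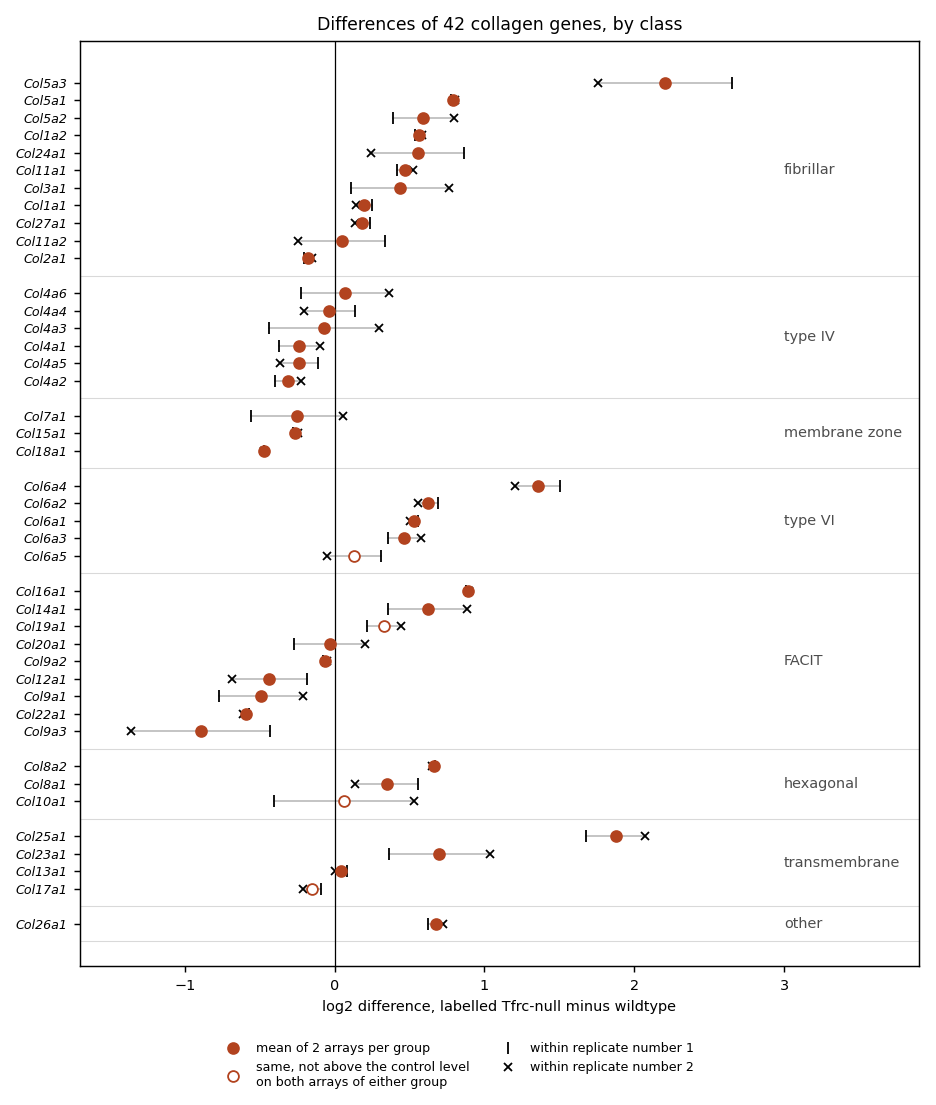
Log2 difference of each collagen gene (cells labelled Tfrc-null minus wildtype cells) by class, as filled circles, or open circles where neither group was above the control level on both arrays. Bars and crosses mark the differences within replicate numbers 1 and 2. Differences run from -0.90 (Col9a3) to 2.20 (Col5a3), and type VI genes lie above 0 while membrane zone genes lie below it. The Col6a4 point rests on wildtype values at or below the control level.

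Among fibrillar collagens, 10 of 11 genes had a higher mean in the cells labelled Tfrc-null (57.4% of all genes did), with a class median of 0.47. Of the 10, 6 were higher without overlap (20.6% of all genes). None had an adjusted p under 0.05, and 3 had an unadjusted p under it (8.02% of all genes in either direction). These were the genes of type V collagen, which starts fibrils and limits their width. The class median was 0.39 within replicate 1 and 0.52 within replicate 2.

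The promoters of 3 genes that lay apart between the groups, with the smallest fibrillar and FACIT p-values, are shown beside that of Col1a2, a chain of type I collagen. Each is the upstream stretch that lies outside the annotated gene, taken from the RefSeq window of GRCm38.p6 and so of unequal length (200 bases for Col5a3, 206 for Col5a1, 227 for Col16a1 and 250 for Col1a2), written 5′ to 3′ on the gene's strand. Capitals mark CCAAT boxes (CCAAT or, read on the other strand, ATTGG) and GC boxes (GGGCGG or CCGCCC). Col5a3 lies at chr9:20815118-20815317 on the minus strand, Col5a1 at chr2:27886175-27886380, Col16a1 at chr4:130047590-130047816 and Col1a2 at chr6:4505368-4505617, all 3 on the plus strand.
Col5a3: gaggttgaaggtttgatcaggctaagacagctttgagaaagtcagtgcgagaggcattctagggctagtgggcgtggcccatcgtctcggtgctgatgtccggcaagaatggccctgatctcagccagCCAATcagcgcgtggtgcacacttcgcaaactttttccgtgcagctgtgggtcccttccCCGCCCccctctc
Col5a1: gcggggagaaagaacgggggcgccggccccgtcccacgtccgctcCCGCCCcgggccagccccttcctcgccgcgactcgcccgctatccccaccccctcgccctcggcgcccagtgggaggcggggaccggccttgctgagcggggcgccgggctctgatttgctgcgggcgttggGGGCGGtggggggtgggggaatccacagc
Col16a1: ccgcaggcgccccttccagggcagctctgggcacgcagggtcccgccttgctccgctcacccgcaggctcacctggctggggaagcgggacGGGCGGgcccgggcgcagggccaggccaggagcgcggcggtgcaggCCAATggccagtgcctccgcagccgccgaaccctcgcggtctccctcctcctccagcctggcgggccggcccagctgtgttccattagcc
Col1a2: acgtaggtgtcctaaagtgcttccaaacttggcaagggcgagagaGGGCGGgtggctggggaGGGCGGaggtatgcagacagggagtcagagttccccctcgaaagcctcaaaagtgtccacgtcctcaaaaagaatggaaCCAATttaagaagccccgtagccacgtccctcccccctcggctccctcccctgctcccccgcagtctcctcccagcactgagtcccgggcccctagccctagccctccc
The Col5a3, Col16a1 and Col1a2 stretches each hold 1 CCAAT box, and the Col5a1 stretch holds 0. GC boxes number 1 in the printed stretches of Col5a3 and Col16a1 and 2 in those of Col5a1 and Col1a2, and the full window of 250 bases holds 2 for Col5a3. TATAAA, read on both strands, is in none of the 4 stretches, and the marked motifs do not overlap. Over 36 full windows of 250 bases before the starts of 33 collagen genes, CCAAT was found in 13, a GC box in 21 and TATAAA in 5. Among 32851 such windows of all genes the shares were 33.8%, 32.7% and 12.4%.

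Col5a3, whose chain joins those of Col5a1 and Col5a2 in a rarer form of type V, read 85.5 and 58.1 in cells labelled Tfrc-null, against 13.6 and 17.2 in wildtype cells. Both arrays labelled Tfrc-null were far above both wildtype arrays. The log2 difference was 2.20 (SE 0.27), a fold of 4.61, with a limma adjusted p of 0.124, and it was 2.65 and 1.76 within the replicate numbers. It was 1.13 when the gene's probe sets were averaged, the second of which was not above the control level, and 1.47 when 16 units were added to every intensity.

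Col5a1, the chain common to all type V molecules, averaged 1001 ± 51.1 in cells labelled Tfrc-null (1037 and 965) and 579.8 ± 37.8 in wildtype cells (607 and 553; SD, n = 2 each). The groups did not overlap, with a log2 difference of 0.79 (SE 0.18; limma adjusted p = 0.33) that was nearly equal within replicate numbers (0.77 and 0.80). Col5a2, the partner chain in the common type V form, read 1042 and 1208 in cells labelled Tfrc-null, against 796 and 696 in wildtype cells. Its groups lay apart as well, by 0.59 (SE 0.20; limma adjusted p = 0.524).

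Both chains of type I collagen, the main fibre of connective tissue, had higher means in the cells labelled Tfrc-null. Col1a2 read 5559.7 and 4269 in cells labelled Tfrc-null, against 3835 and 2846 in wildtype cells. The groups lay apart by a log2 difference of 0.56 (SE 0.25; limma adjusted p = 0.684), with 0.54 and 0.58 within replicate numbers. It was 0.37 without the first array labelled Tfrc-null and 0.35 without the second wildtype array.

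Col1a1, the partner chain of Col1a2, read 4364 and 4211 in cells labelled Tfrc-null, against 3664 and 3813 in wildtype cells, a log2 difference of 0.20 (SE 0.18; limma adjusted p = 0.908). Its second probe set read 4431 and 3682, against 2619 and 1950 in wildtype cells, a difference of 0.84. Both probe sets separated the groups in the same direction and disagreed on the size.

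Col3a1, the chain of type III collagen in pliable tissues, read 5484 and 4619 in cells labelled Tfrc-null, against 5092 and 2722 in wildtype cells. The groups overlapped, and the wildtype arrays differed from each other by more than the groups did. The log2 difference of 0.44 (SE 0.34; limma adjusted p = 0.881) was 0.89 without the first wildtype array and -0.02 without the second.

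Col24a1, a minor fibrillar chain known from bone, read 75.2 and 84.0 in cells labelled Tfrc-null, against 41.3 and 70.9 in wildtype cells. The groups did not overlap, and the log2 difference of 0.55 (SE 0.30; limma adjusted p = 0.766) was 0.16 without the first wildtype array and 0.94 without the second. The remaining fibrillar chains all overlapped. The log2 differences were 0.47 for Col11a1 (0.20 without the second wildtype array), 0.19 for Col27a1, 0.05 for Col11a2 and -0.18 for Col2a1, the main chain of cartilage fibrils. The last 2 turned sign without the first wildtype array.

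All 5 type VI genes read, Col6a5 only at the control level, had a higher mean in the cells labelled Tfrc-null (57.4% of all genes did). Of these, 4 were higher without overlap (20.6% of all genes). The class median was 0.53 (0.55 and 0.56 within replicate numbers). Type VI collagen forms a microfilament network around cells from the chains of Col6a1, Col6a2 and one more, usually that of Col6a3. Col6a1 averaged 2400.1 ± 305 in cells labelled Tfrc-null (2185 and 2616) and 1666 ± 251 in wildtype cells (1489 and 1844; SD, n = 2 each). The groups lay apart by 0.53 (SE 0.22; limma adjusted p = 0.637).

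Col6a2 read 1592 and 2339 in cells labelled Tfrc-null, against 989 and 1589.5 in wildtype cells. The lower array labelled Tfrc-null was level with the higher wildtype array, and the log2 difference of 0.62 (SE 0.32; limma adjusted p = 0.748) was 0.28 without the first wildtype array. Col6a3 read 454 and 599 in cells labelled Tfrc-null, against 356 and 401 in wildtype cells, which lay apart by 0.47 (SE 0.22; limma adjusted p = 0.709), and by 0.27 without the second array labelled Tfrc-null.

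Col6a4, an alternative to Col6a3 in the trimer, read 16.5 and 15.6 in cells labelled Tfrc-null, against 5.81 and 6.76 in wildtype cells. Both wildtype arrays were at or below the control level, so only a bound can be given. Against that level, the cells labelled Tfrc-null read at least 1.99-fold higher (limma adjusted p = 0.152, from the measured values). The second Col6a4 probe set was not above the control level. Col6a5 did not exceed the control level on any array.

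**Figure D2:**
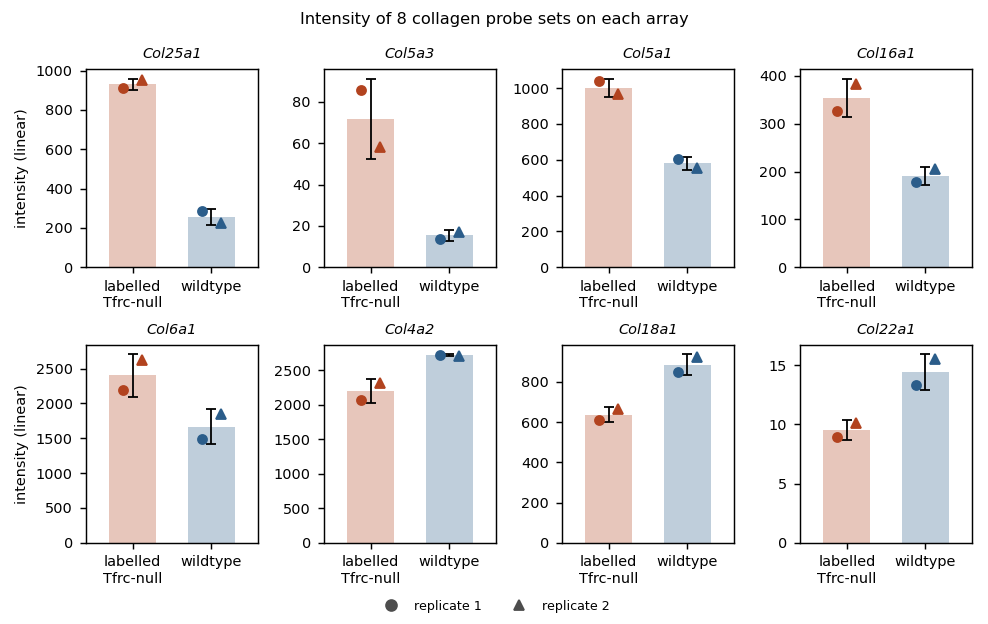
Intensity (linear scale from 0) of 8 collagen genes, with points for the arrays, bars for group means and error bars for SD (n = 2), cells labelled Tfrc-null left of wildtype cells. Col25a1 and Col5a3 separate the groups most widely, at 909.8 and 950.3 against 284 and 226, and at 85.5 and 58.1 against 13.6 and 17.2.

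The FACIT genes were mixed, with 3 of 9 higher and 6 lower in mean, 3 and 4 of them without overlap, and a median of -0.06. The 3 include Col19a1, which was above the control level on 1 array only. Over all genes, 20.6% were higher and 14.3% lower without overlap. Col16a1, a FACIT of fibril and microfibril surfaces, averaged 354 ± 39.9 in cells labelled Tfrc-null (326 and 383) and 191 ± 19.2 in wildtype cells (178 and 205; SD, n = 2 each). The groups lay apart by 0.89 (SE 0.20; limma adjusted p = 0.313), with 0.87 and 0.90 within replicate numbers. Its promoter stretch, printed above, holds a GC box followed by a CCAAT box, an order that the Col1a2 stretch has too.

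Col14a1, which binds type I fibrils through the proteoglycan decorin, read 516 and 537 in cells labelled Tfrc-null, against 403 and 291 in wildtype cells. The groups did not overlap, and the log2 difference of 0.62 (SE 0.23; limma adjusted p = 0.58) was 0.39 without the second wildtype array.

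Col22a1, a FACIT of tissue junctions such as that of muscle and tendon, read 8.95 and 10.1 in cells labelled Tfrc-null, against 13.3 and 15.5 in wildtype cells. Both arrays labelled Tfrc-null were lower, by 0.59 on the log2 scale (-0.59, SE 0.20; limma adjusted p = 0.522). Its other probe sets gave -0.06 and 0.06, and the mean of all gave -0.20. Col12a1, another partner of type I fibrils, read 65.4 and 57.9 in cells labelled Tfrc-null, against 74.5 and 93.2 in wildtype cells, a log2 difference of -0.44 (SE 0.21; limma adjusted p = 0.715). Its groups lay apart in this probe set, while a second gave 0.68, so the direction for Col12a1 depends on the probe set.

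The type IX genes, whose FACIT molecule coats cartilage fibrils, were lower in mean. Log2 differences were -0.49 for Col9a1, -0.90 for Col9a3 and -0.06 for Col9a2. Col9a1 moved to -0.22 without the first array labelled Tfrc-null, to -0.77 without the second and to -0.14 with its probe sets averaged. Col9a3 overlapped and moved to -0.12 without the second wildtype array and to -1.67 without the first. A second Col9a3 probe set read 22.7 and 26.4 in cells labelled Tfrc-null, against 36.5 and 37.9 in wildtype cells. It differed by -0.61 without overlap. Col20a1 overlapped at -0.03, and Col19a1, above the control level on some arrays only, is not given a fold.

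Of the hexagonal network genes, all 3 had a higher mean. Col8a2, a chain of the type VIII collagen of vessel walls and corneal membrane, read 93.4 and 80.1 in cells labelled Tfrc-null, against 58.6 and 51.0 in wildtype cells. The groups lay apart by 0.66 (SE 0.20; limma adjusted p = 0.473). Its partner Col8a1 overlapped at 0.35, and at 0.01 without the first wildtype array. Col10a1, the collagen of hypertrophic cartilage, was above the control level on some arrays only. Col26a1, which belongs to none of the classes above, read 317 and 417 in cells labelled Tfrc-null, against 205 and 253 in wildtype cells. Its groups lay apart by 0.67 (SE 0.23; limma adjusted p = 0.545), and the mean of its probe sets differed by 0.27.

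Of the transmembrane collagens, 3 of 4 had a higher mean in the cells labelled Tfrc-null, 2 without overlap (20.6% of all genes), with a median of 0.37. Among all 42 genes, Col25a1 had the smallest p-value. It encodes the chain found in amyloid plaques of the brain and, in mouse, is needed in muscle for motor nerve entry. It averaged 930.1 ± 28.6 in cells labelled Tfrc-null (909.8 and 950.3) and 255 ± 41.1 in wildtype cells (284 and 226; SD, n = 2 each). Both arrays labelled Tfrc-null were far above both wildtype arrays, with a log2 difference of 1.88 (SE 0.21), a fold of 3.67 and a limma adjusted p of 0.122.

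Within the replicate numbers the Col25a1 difference was 1.68 and 2.07. A second, dim probe set read 10.9 and 10.6 in cells labelled Tfrc-null, against 9.42 and 8.60 in wildtype cells, a difference of 0.25. Averaging both probe sets gave 1.06.

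Col23a1 read 83.6 and 94.1 in cells labelled Tfrc-null, against 64.9 and 46.0 in wildtype cells. The groups lay apart by 0.70 (SE 0.24; limma adjusted p = 0.538), by 0.45 without the second wildtype array and by 0.46 with its probe sets averaged. Col13a1, a transmembrane collagen of cell adhesion sites, was level, at 147 and 160.4 in cells labelled Tfrc-null and 139 and 160.4 in wildtype cells (0.04, SE 0.19; limma adjusted p = 1). Col17a1, of the hemidesmosomes that anchor epithelia, did not exceed the control level on any array.

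Type IV collagen ran the other way in mean, with 1 of 6 genes higher and 5 lower. Of these, 2 were lower without overlap (14.3% of all genes) and none had an unadjusted p under 0.05. The class median of -0.15 was -0.08 without the first array labelled Tfrc-null and -0.30 without the second wildtype array. Col4a1 and Col4a2 encode the chains of the network in nearly every basement membrane, and their annotated starts lie 21 bases apart on opposite strands. Col4a2 averaged 2197 ± 174 in cells labelled Tfrc-null (2074 and 2319.9) and 2722 ± 13.7 in wildtype cells (2732 and 2713; SD, n = 2 each), a log2 difference of -0.31 (SE 0.18; limma adjusted p = 0.797).

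Col4a1 read 3359 and 3292 in cells labelled Tfrc-null, against 4353 and 3521 in wildtype cells. Both arrays labelled Tfrc-null were lower, with a log2 difference of -0.24 (SE 0.20; limma adjusted p = 0.906) that was -0.08 without the first wildtype array and -0.39 without the second. Its second probe set gave -0.25.

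The chains of the mature glomerular network overlapped between groups. Col4a5 read 284 and 347 in cells labelled Tfrc-null, against 307 and 446 in wildtype cells, a log2 difference of -0.24 (SE 0.26; limma adjusted p = 0.942) that was 0.03 without the second wildtype array. Col4a3 read 20.3 and 24.3 in cells labelled Tfrc-null, against 27.5 and 19.8 in wildtype cells (-0.07, SE 0.24; limma adjusted p = 0.996). The groups overlapped in both genes. Col4a4 gave -0.04 and Col4a6, the head-to-head neighbour of Col4a5 with annotated starts 1343 bases apart, gave 0.07, and all 3 of Col4a3, Col4a4 and Col4a6 turned sign when 1 array was left out.

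All 3 membrane zone genes had a lower mean, with a median of -0.26 that was -0.08 without the first array labelled Tfrc-null and -0.45 without the second. Col18a1, a heparan sulfate collagen of epithelial and vascular basement membranes and the source of endostatin, averaged 637 ± 37.8 in cells labelled Tfrc-null (610.3 and 664) and 885 ± 52.7 in wildtype cells (848 and 923; SD, n = 2 each). Both arrays labelled Tfrc-null were lower, with a log2 difference of -0.48 (SE 0.18; limma adjusted p = 0.615) that a second probe set put at -0.50.

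Col15a1, which links basement membrane to the underlying fibrils, read 264 and 342 in cells labelled Tfrc-null, against 320.0 and 405 in wildtype cells (-0.26, SE 0.24; limma adjusted p = 0.908). Col7a1, of anchoring fibrils, read 19.3 and 25.4 in cells labelled Tfrc-null, against 28.5 and 24.4 in wildtype cells (-0.25, SE 0.23; limma adjusted p = 0.908). Both genes overlapped between the groups. Without the first array labelled Tfrc-null the differences were -0.08 for Col15a1 and -0.06 for Col7a1, and without the second -0.45 for both.

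Cell type markers differed between the groups alongside the collagens. Of 14 stromal markers, 13 had a higher mean in the cells labelled Tfrc-null (57.4% of all genes did). Of the 13, 10 were higher without overlap (20.6% of all genes). The summed intensity of the 14 was 12517 and 11999 in cells labelled Tfrc-null against 8821 and 7348 in wildtype cells. This runs in the same direction as the fibrillar, type VI and Col16a1 values. All 8 ureteric bud markers had a lower mean (7706 of 18194 genes did), 6 of them without overlap (14.3% of all genes). Their sums were 1604 and 1319 against 5099 and 4359 in wildtype cells. All 12 endothelial markers had a lower mean too, 6 of them without overlap. Their sums were 2826 and 2114 against 4152 and 3124 in wildtype cells, in the same direction as type IV collagen and Col18a1. Podocyte markers ran the other way in mean, with 3 of 4 measured genes higher, 1 of them without overlap, and a median of 0.19. Of 3 measured Schwann and neural crest markers, 2 were higher in mean and 1 lower.

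Smooth muscle and pericyte markers summed to 3471 and 3357 in cells labelled Tfrc-null and 4063 and 3896 in wildtype cells, with 2 of 7 higher, 4 lower and 1 equal in mean. The gap between these sums was largely that of 1 gene, Rgs5. It read 402 and 343 in cells labelled Tfrc-null, against 1207 and 750 in wildtype cells. Acta2, the brightest of the 7, was level (-0.01), and Des was higher (0.63). Cartilage markers, listed because of Col2a1 and the type IX genes, summed to 757 and 781 in cells labelled Tfrc-null and 922 and 839.8 in wildtype cells. In mean, 4 of 6 were lower. Nearly all of each sum was Hapln1, at 691 and 726 in cells labelled Tfrc-null and 851 and 778 in wildtype cells. Matn1, Cnmd and Ucma read near the control level, so the sum says little about the markers other than Hapln1. Markers of cap mesenchyme, the nephron progenitors, summed to 1395 and 1157 in cells labelled Tfrc-null and 1350.4 and 1548 in wildtype cells. The widest marker gap was that of red cell precursors. All 5 measured erythroid markers were lower without overlap in the cells labelled Tfrc-null (14.3% of all genes were). Their median was -3.99, with sums of 76.2 and 93.7 against 1358 and 4121 in wildtype cells. Each measured marker exceeded the control level on at least 1 array. The part of cell composition in the collagen differences was not tested.

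Above the control level on both arrays of at least 1 group were 27 further collagen probe sets. Of these, 14 had a mean intensity of at least 50. Agreement between probe sets was counted for these 14 only, and the minimum was chosen after seeing the data. These covered 13 genes. Of the 14, 11 had the sign of the probe set used, and 10 lay within 0.25 log2 units of its difference. For Col5a1 the further probe sets gave 0.76 and 0.74 beside 0.79. Col3a1 gave 0.49, Col14a1 0.78, Col6a2 0.76 and Col23a1 0.61, each with the same sign as the probe set used. Col5a2 gave 1.0 beside 0.59. Among the 14, the opposite signs were those of Col27a1 (-0.21 beside 0.19), Col4a5 (0.02 beside -0.24) and Col4a4 (0.14 beside -0.04), genes whose groups overlapped. The dimmer probe sets, left out of these counts, were mixed. Some kept the sign, such as those of Col11a1 (0.46 beside 0.47) and Col9a3 (-0.61 beside -0.90). Others did not, such as those of Col12a1 (0.68 beside -0.44) and Col22a1 (0.06 beside -0.59), genes whose groups lay apart. Opposite signs were also seen in genes whose groups overlapped. These were Col20a1 (0.05 and 0.02 beside -0.03), Col4a4 (0.16 beside -0.04) and Col4a6 (-0.07 beside 0.07).

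**Figure D3:**
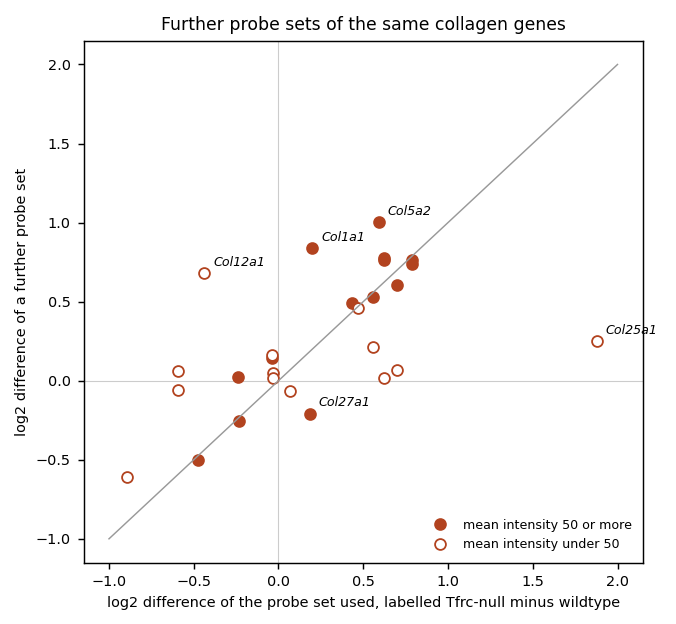
Log2 difference of further collagen probe sets (vertical axis) against that of the probe set used for the same gene (horizontal axis), cells labelled Tfrc-null minus wildtype cells, with a diagonal of equal values and open circles for mean intensities under 50. Of the 14 points with a mean intensity of at least 50, a minimum chosen after seeing the data, 11 share the sign of the probe set used. The dimmer points are mixed in sign. The dim second probe set of Col25a1 lies far below the diagonal at 0.25 against 1.88.

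Genes that make and process collagen leaned the same way as the fibrillar chains. Of 28 measured genes, out of 32 listed, 23 had a higher mean in the cells labelled Tfrc-null (57.4% of all genes did). Of the 23, 14 were higher without overlap (20.6% of all genes) and 1 of these, Pcolce, at least 2-fold (1.15% of all genes). The 23 include Tll2 and Pcolce2, which like Tll1 did not exceed the control level on any array. None passed the test, 8 had an unadjusted p under 0.05 (8.02% of all genes in either direction), all higher, and the median was 0.42. Plod1, a lysyl hydroxylase that needs iron, read 435 and 375 in cells labelled Tfrc-null, against 245 and 191 in wildtype cells, and these lay apart by 0.90 (SE 0.22; limma adjusted p = 0.352).

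Pcolce, which enhances removal of the procollagen C-propeptide, read 2027 and 3136 in cells labelled Tfrc-null, against 883 and 1573 in wildtype cells. The groups lay apart by 1.10 (SE 0.37; limma adjusted p = 0.524), and by 0.68 without the first wildtype array. Bmp1, the proteinase that removes it, read 138 and 147 in cells labelled Tfrc-null, against 96.1 and 95.8 in wildtype cells, also without overlap (0.57; limma adjusted p = 0.503), although the mean of its probe sets differed by 0.19.

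Other hydroxylases and cross-linking enzymes also lay apart. Log2 differences were 0.68 for P4ha2, a catalytic subunit of prolyl 4-hydroxylase, 0.60 for the prolyl 3-hydroxylase family gene P3h3 and 0.63 for the lysyl hydroxylase Plod3. They were 0.77 for Loxl1 and 0.42 for Lox, both copper-dependent lysyl oxidases. P4ha1, the other main prolyl 4-hydroxylase subunit, gave 0.49, and 0.24 without the second wildtype array. Limma adjusted p-values for these 6 genes lay between 0.505 and 0.718.

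Some genes of the list were close to equal between the groups. P4hb, the shared beta subunit, read 4191 and 4482 in cells labelled Tfrc-null and 4417 and 4315 in wildtype cells (-0.01). Serpinh1, the collagen chaperone HSP47, read 1715 and 1463 in cells labelled Tfrc-null and 1885 and 1244 in wildtype cells (0.05). Plod2, a lysyl hydroxylase of telopeptides, gave -0.04. These 3 genes overlapped between groups and turned sign when 1 array was left out. Crtap and Fkbp14, which also act in collagen folding and are named here after their values were seen, lay apart by 0.57 and 0.53 (limma adjusted p = 0.732 and 0.57).

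Receptors and degrading enzymes went both ways, with 12 of 19 measured genes (20 listed) higher in mean, 7 lower and a median of 0.07. The share higher in mean was near that of all genes, 57.4%. None passed the test, and 7 had an unadjusted p under 0.05, 4 of them higher (8.02% of all genes in either direction). Ddr2, a receptor tyrosine kinase for fibrillar collagen in mesenchymal cells, read 708 and 869.8 in cells labelled Tfrc-null, against 271 and 331 in wildtype cells. These groups lay apart by 1.39 (SE 0.22), a fold of 2.62, with a limma adjusted p of 0.197, and by 0.71 with its probe sets averaged. Ddr1, its epithelial relative, read 294 and 369 in cells labelled Tfrc-null, against 809 and 526 in wildtype cells, lower on both arrays (-0.98, SE 0.28; limma adjusted p = 0.439). With its probe sets averaged, Ddr1 differed by -0.52.

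Fap, a fibroblast surface protease that cuts denatured collagen, read 203 and 201 in cells labelled Tfrc-null, against 84.4 and 55.4 in wildtype cells (1.56, SE 0.26; limma adjusted p = 0.212). Mmp9, a gelatinase, read 18.6 and 23.1 in cells labelled Tfrc-null, against 78.8 and 74.7 in wildtype cells (-1.89, SE 0.20; limma adjusted p = 0.122). Neither gene's groups overlapped. Mmp8, the neutrophil collagenase, was also lower on both arrays, the first of which did not exceed the control level (-1.37; limma adjusted p = 0.345). Ctsk, a collagen-degrading cathepsin, was higher on both (0.64; limma adjusted p = 0.473). With 16 units added these were -0.62 and 0.29.

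**Figure D4:**
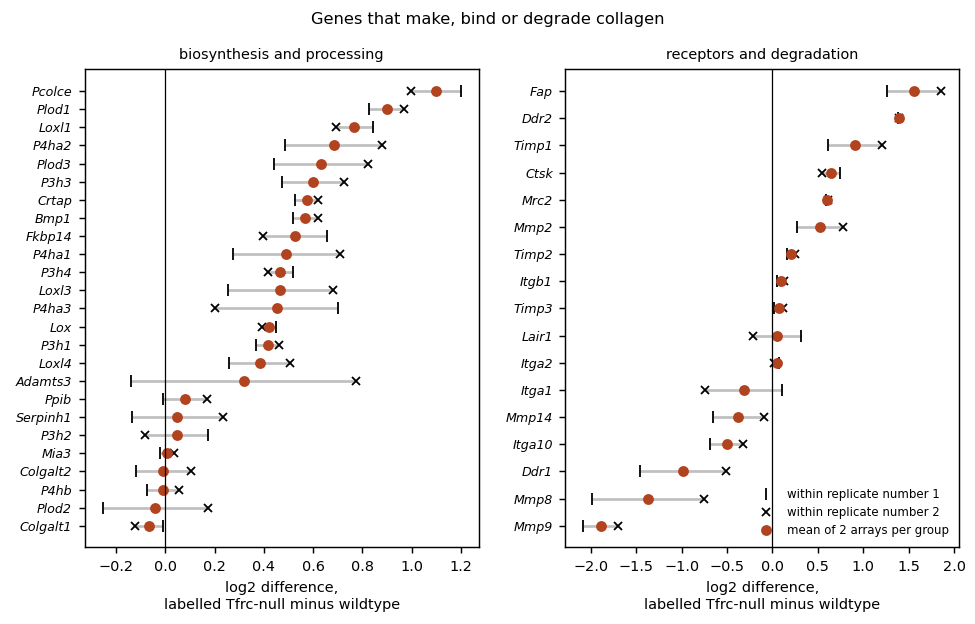
Log2 difference (cells labelled Tfrc-null minus wildtype cells) for measured genes of collagen biosynthesis and processing (left) and collagen receptors and degrading enzymes (right). Circles are differences of group means, and bars and crosses those within replicate numbers 1 and 2. Plod1, Pcolce, Ddr2 and Fap lie above 0, at 0.90, 1.10, 1.39 and 1.56, while Ddr1 and Mmp9 lie below it at -0.98 and -1.89.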

How the data were processed

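Per the labels' protocols, 50 ng of total RNA from sorted cells was amplified by an isothermal linear method, labelled with biotin and hybridized to Affymetrix arrays. The authors deposited intensities per probe set, unlogged. The submitters' processing notes name RMA without a version. RMA equalises the arrays' distributions, so a shift shared by most genes would not be seen. For the tests, log2 was taken of the deposited intensities of 45101 probe sets with no other scaling. Of these, 34958 carried 1 gene symbol in the platform annotation, and 18194 genes were each read from 1 probe set, that of highest mean log2 over the arrays.

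A difference subtracts the wildtype mean log2 value from that of cells labelled Tfrc-null. It was tested across all genes with limma 3.58.1 in R 4.3.3 (lmFit, eBayes, no covariate), with Benjamini-Hochberg adjustment and a threshold of 0.05. Standard errors come from the fit, a fold is the unlogged difference, and group means of intensity carry their SD. Replicates are labelled biological, with no animals named, so the p-values reflect only the spread between these samples, which may be technical. Their number, 2 per group, limits the precision. The fit was tested on simulated data, in which 1.2% of changes of 1 log2 unit and 66.6% of changes of 2 units passed the threshold. There were 78 false calls over 10 simulations. Simulated noise was independent between arrays, unlike the shared deviations described next, so these shares need not hold for the real arrays. There, larger differences did not pass either, such as Ret at -3.47 and Alas2 at -5.40 (limma adjusted p = 0.122 for both). A difference of about 1 unit seldom passed even in the simulation. Same-numbered arrays deviated from their group means together (r = 0.51 across genes), but with 2 pairs and no label of a shared batch the numbers were not taken to pair the samples.

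All 42 genes are accounted for. Values on every array are given for up to 4 genes per class with the smallest p among those above the control level, and for the 4 with the highest mean level. Of the pathway lists, up to 6 genes with the smallest p and 8 set genes are named. The genes, classes and lists were chosen with earlier results of these data known. Promoter stretches come from RefSeq (GRCm38.p6), in which 33 of the 42 genes matched by symbol.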

Additional observations from a re-analysis of the deposited data

How the results depend on the processing

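The comparison was repeated under 12 other settings, among them the mean of all probe sets, genes above the control level only, arrays centred on their median, log2 after adding 16, a trended robust fit, the replicate block and each array left out. No collagen gene passed the adjusted threshold under any of them, and of 672 repeats of named genes, 647 kept their direction, with a lowest adjusted p of 0.082. Some of the 672 repeats could not change direction, because their setting leaves the difference itself as it was. These were the replicate block, the fit to all probe sets, genes above the control level only and the trended robust fit. All reversals came from the remaining settings. Over all genes, 0 passed in the comparison as reported, 1 with the mean of all probe sets, 2 with centred arrays and 2 with the trended robust fit. With the replicate number as a replicate block, 2 of all genes passed, with adjusted p-values of 0.0949 for Col25a1 and 0.124 for Col5a3.

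With the mean of all probe sets the medians were 0.13 for hexagonal network, 0.25 for transmembrane and 0.35 for biosynthesis genes. With genes above the control level only they were -0.25 for FACIT, 0.50 for hexagonal and 0.70 for transmembrane genes, since fewer genes were counted, and with 16 added the biosynthesis median was 0.32. With 1 array left out, collagen genes higher without overlap numbered 20 to 22 (36.4% to 40% of all genes) and those lower 9 to 14 (26.8% to 31.6% of all genes), since 2 arrays against 1 overlap less often. Those at least 2-fold higher numbered 3 to 4, and lower 0 to 1. Without an array, medians lay between 0.31 and 0.69 for fibrillar, -0.30 and -0.077 for type IV, -0.45 and -0.076 for membrane zone, -0.35 and -0.049 for FACIT, 0.19 and 0.56 for hexagonal, 0.27 and 0.48 for biosynthesis, and -0.015 and 0.19 for receptor and degradation genes.

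Reversals with the mean of all probe sets were Col27a1 at -0.012, Col4a6 at -0.00050, Col4a4 at 0.091, Col12a1 at 0.024, Plod2 at 0.13 and Serpinh1 at -0.0083, and with centred arrays P4hb at 0.021. With 1 array left out, the range was -0.017 to 0.89 for Col3a1, -0.43 to 0.075 for Col2a1, -0.22 to 0.32 for Col11a2, -0.51 to 0.031 for Col4a5, -0.31 to 0.17 for Col4a3, -0.29 to 0.42 for Col4a6, -0.18 to 0.11 for Col4a4, -0.38 to 0.32 for Col20a1, -0.063 to 0.15 for Col13a1, -0.059 to 0.038 for P4hb, -0.23 to 0.15 for Plod2 and -0.25 to 0.35 for Serpinh1. The cause of these changes was not tested. Genes near the control level, among them Col6a4, Col22a1 and Col11a2, have little signal over background, and 1 array a side is assumed to vary like the others where an array was left out.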
